A study of Mus musculus with 24 samples.

Results

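Messenger RNA levels of 10 genes of the G1 phase of the cell cycle were followed in 24 mouse RNA-seq libraries: the inhibitors Cdkn1a, Cdkn1b, Cdkn2a, Cdkn2b and Cdkn2c, the tumour suppressor Trp53 and its regulator Mdm2, the retinoblastoma gene Rb1, and the D cyclins Ccnd1 and Ccnd2. The genes were chosen by name and make up 10 of the 22282 genes in the files, and all 10 passed the filter on low values, which was a mean of 1 FPKM over the libraries. The study asked whether non-vascular cells of the embryo can be turned into functional endothelial cells (ECs). All cells came from mice of C57BL/6 background, with the amniotic cells described as taken from C57BL/6J embryos. By the methods the pregnant females were either wild type or carried a tdTomato reporter. Each of the 8 groups had 3 libraries. MACs are amniotic cells of E11.5 to E13.5 embryos grown in culture. RACVECs are MACs carrying lentiviruses for the Ets transcription factors Etv2, Erg and Fli1 under the PGK promoter and grown for 28 days in EC medium with the TGF-beta receptor inhibitor SB431542. The header of the RACVEC 3 file names Flk1, GFP+ and day 65. Akt-MACs and Akt-RACVECs also carried constitutively active myristoylated Akt1, and Sox17-RACVECs were RACVECs that carried a Sox17 lentivirus. Akt-LECs and Akt-liver ECs are ECs of adult lung and liver isolated on CD31 beads, given the same myristoylated Akt1 and sorted again for VE-cadherin and CD31. LSECs are liver ECs sorted straight from the animal with no culture and no transgene. By the study's methods a biological replicate of MACs was an independently isolated culture from embryos of mixed sex. That definition does not name the other groups used here. The p-values measure the spread between libraries of the same group.

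The genes form the gate between G1 and S phase. D cyclins join Cdk4 or Cdk6 and phosphorylate the retinoblastoma protein, which then releases the E2F factors that switch on S phase genes. Ink4 proteins (p16Ink4a from Cdkn2a, p15 from Cdkn2b, p18 from Cdkn2c) block Cdk4 and Cdk6, whereas p21 (Cdkn1a) and p27 (Cdkn1b) chiefly hold back cyclin E with Cdk2. p53, the protein of Trp53, induces Cdkn1a and Mdm2, Mdm2 marks p53 for destruction, and p19Arf, the other product of Cdkn2a, inhibits Mdm2. In cultured mouse cells the Cdkn2a and Cdkn2b locus is known for its rise with passage, and quiescent endothelium in the animal is known to divide rarely.

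Cdkn2a and Cdkn2b are neighbours on the minus strand of chromosome 4 in mm9, at chr4:88920377-88940557 and chr4:88952198-88956941, with 11641 bases between them. Cdkn2a makes 2 transcripts whose starts lie 12427 bases apart and which differ only in the first exon. The coding part of each first exon is printed below in lower case, with the first 30 bases of the shared second exon (chr4:88922860-88922889) in capitals, because the 2 rows of the files for Cdkn2a rest on this difference. The p16Ink4a part lies at chr4:88927890-88928015 and the p19Arf part at chr4:88940238-88940427. The p16Ink4a part has 126 bases, which leaves 0 after whole codons, and the p19Arf part has 190, which leaves 1, so that the capitals are read in different frames. In the mm9 annotation the first exon is 24.4% of the p16Ink4a transcript and 30.8% of the p19Arf transcript, and the remaining 643 bases are common to both.
p16Ink4a: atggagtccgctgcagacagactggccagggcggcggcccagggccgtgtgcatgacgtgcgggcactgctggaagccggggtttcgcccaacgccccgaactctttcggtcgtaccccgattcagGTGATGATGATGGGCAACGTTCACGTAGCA
p19Arf: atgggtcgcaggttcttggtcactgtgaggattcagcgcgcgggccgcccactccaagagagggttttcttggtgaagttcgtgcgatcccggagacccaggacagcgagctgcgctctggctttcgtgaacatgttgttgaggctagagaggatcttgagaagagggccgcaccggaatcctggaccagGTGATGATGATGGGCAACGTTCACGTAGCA

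The 250 bases upstream of the 3 starts of this locus are shown because the levels of Cdkn2a and Cdkn2b had the highest correlation of the 45 pairs of genes. They are RefSeq sequences of GRCm38.p6 on the minus strand, at chr4:89294620-89294869 for p19Arf, chr4:89282193-89282442 for p16Ink4a and chr4:89311033-89311282 for Cdkn2b. Capitals mark matches on either strand to CGGAAG, the core bound by Ets factors, or to TTTCCCGC, an E2F element, and neither string contains the other.
p19Arf upstream: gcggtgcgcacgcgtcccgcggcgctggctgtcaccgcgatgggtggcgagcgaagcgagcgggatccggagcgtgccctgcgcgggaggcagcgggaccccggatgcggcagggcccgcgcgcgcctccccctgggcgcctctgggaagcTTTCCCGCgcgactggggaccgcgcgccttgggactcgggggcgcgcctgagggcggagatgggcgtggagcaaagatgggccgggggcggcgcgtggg
p16Ink4a upstream: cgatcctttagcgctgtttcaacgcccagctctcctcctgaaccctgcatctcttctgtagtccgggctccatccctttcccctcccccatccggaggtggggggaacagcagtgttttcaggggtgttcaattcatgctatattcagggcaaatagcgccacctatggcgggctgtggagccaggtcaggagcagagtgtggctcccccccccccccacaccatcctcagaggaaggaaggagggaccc
Cdkn2b upstream: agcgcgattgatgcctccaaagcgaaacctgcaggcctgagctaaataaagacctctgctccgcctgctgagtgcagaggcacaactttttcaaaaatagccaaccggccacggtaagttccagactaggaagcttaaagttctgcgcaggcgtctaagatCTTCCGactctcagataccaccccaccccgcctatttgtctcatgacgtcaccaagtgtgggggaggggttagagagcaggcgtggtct
Windows were at hand for 7 of the 10 genes, 10 windows in all, and not for Rb1, Ccnd1 and Ccnd2. The Ets core occurred in 3 of these 10 windows, those of Cdkn2b, Mdm2 and Trp53, against 13.6% of the 32851 mouse windows of the same length. The E2F element occurred in 1, that of p19Arf, against 0.895% of all windows. GGGCGG, the GC box, occurred in 5 windows, those of Cdkn1a, Cdkn1b, Cdkn2a, Cdkn2c and Mdm2, against 32.7%. The p19Arf window held 78.4% G and C and the Cdkn2b window 53.6%, and the median of all windows was 52.4%. These matches describe the letters only.

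Levels are given as FPKM, fragments per kilobase of transcript scaled to library size, which allows levels of different genes to be compared per length. The number of reads behind them is not known. Several libraries differed from their group in ways that touch the values below. The library labelled Sox17-RACVEC 2 had an Etv2 FPKM of 0, whereas the other two of its group had 378 and 458, and over all genes it was closest to Akt-RACVEC 3 (r = 0.970). It also had the highest Akt1 of the 24 libraries, 1323 FPKM against 884 and 916 in the others of its group. The missing Etv2 goes against its label, which may be wrong. Sox17, the transduced gene, was at 5.09, 40.1 and 200.1 FPKM in libraries labelled Sox17-RACVEC 1 to 3 and at 0 in all RACVECs. Akt1 lay between 559 and 1280.5 in the 4 groups given Akt, between 884 and 1323 in libraries labelled Sox17-RACVEC, and between 451 and 694 in MACs, RACVECs and LSECs. Akt-LEC 1 and Akt-liver EC 1, unlike the others of their groups, carried mesenchymal markers (Col1a1 at 1065 and 556 FPKM) and resembled each other most (r = 0.949). Their mesenchymal markers summed to 4202 and 2676 FPKM and their macrophage markers to 1608 and 1252. RACVECs carried mesenchymal markers as well, with sums of 3192.5 to 6857. The macrophage marker Adgre1 was at 1648 and 4105 FPKM in Akt-MAC 2 and 3. Cdh5, which encodes VE-cadherin, was between 863 and 4131 FPKM in all RACVEC and EC libraries and at most 7.36 in MACs and Akt-MACs. Other endothelial markers were lower in RACVECs than in ECs. The 10 endothelial markers summed to 2185 to 4540 FPKM in RACVECs, 5571 to 18491 in Sox17-RACVECs and 14409 to 20023 in Akt-RACVECs. Their sums were 6564 to 16036 in Akt-LECs, 11471 to 17163 in Akt-liver ECs and 18438 to 21354 in LSECs.

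Across the 10 genes the LSECs, the only uncultured cells, had the lowest group mean for 6 genes (Cdkn1a, Cdkn2a, Cdkn2b, Trp53, Mdm2 and Ccnd1) and the highest for Cdkn1b and Rb1. For 5 genes (Cdkn1a, Cdkn2a, Cdkn2b, Trp53 and Mdm2) all 3 LSEC libraries lay below all 21 cultured libraries. MACs had the highest mean for 4 genes, namely Cdkn1a, Cdkn2a, Cdkn2b and Ccnd1. These counts were not made over all tested genes, so they do not show whether the 10 genes differ from other genes in this. Against Akt-liver ECs alone, all LSEC libraries were lower for 7 of the 10 genes and for 27.7% of tested genes. Cdkn2a spanned the widest range, 238-fold from 10.7 FPKM in LSEC 2 to 2552 in MAC 1, and Trp53 the narrowest, 4.74-fold. By mean over all libraries Ccnd1 was the most abundant (1851 FPKM, above 99.4% of tested genes) and Rb1 the least (45.2 FPKM, above 49.7%). The groups accounted for 87.1% of the variance of log2 levels of Cdkn2b and for 32.0% of that of Cdkn2c, against a median of 59.3% over tested genes. In bulk RNA a lower level cannot be told apart from fewer expressing cells.

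**Figure D1:**
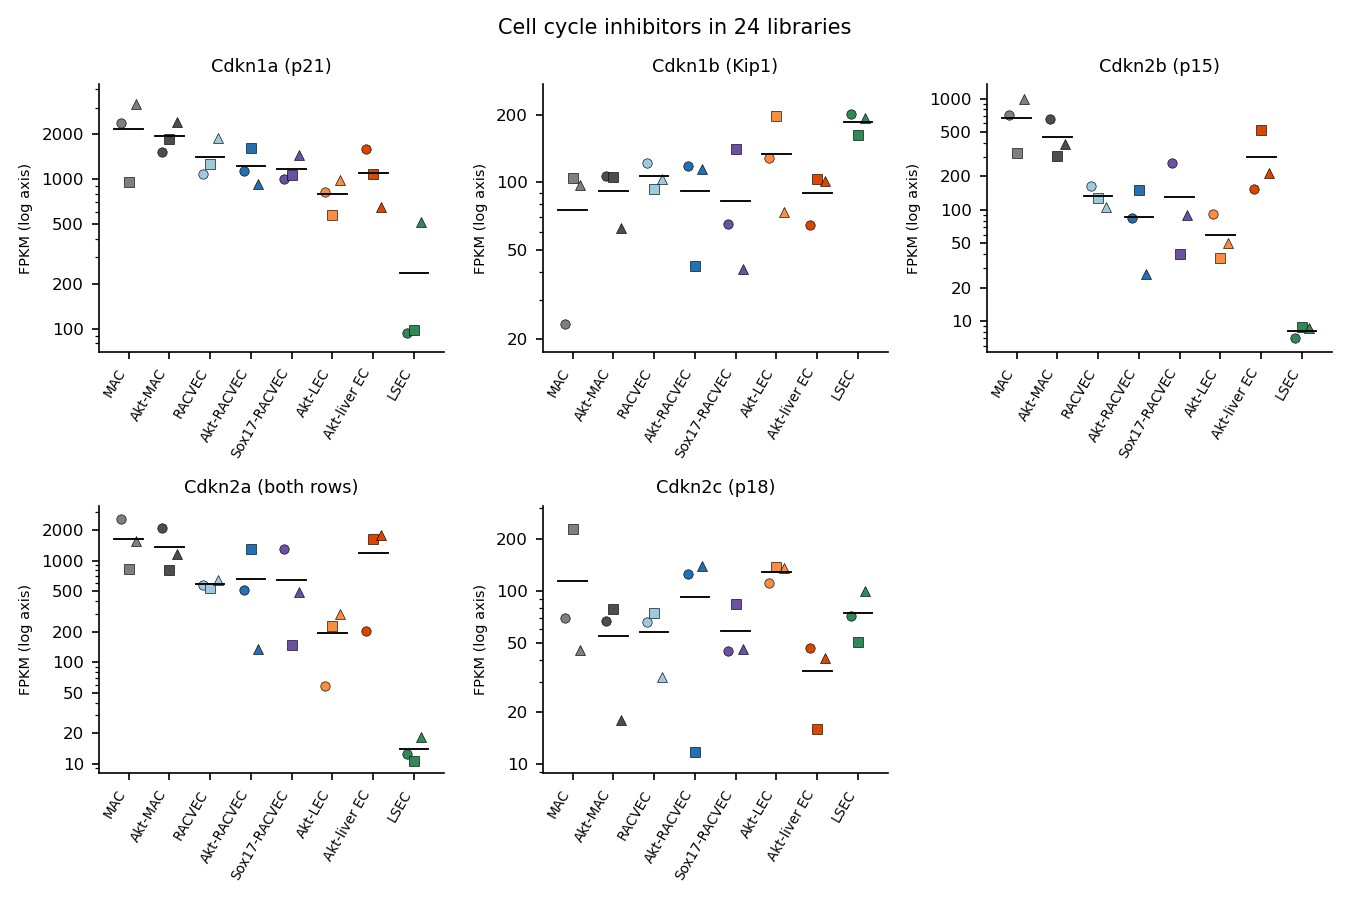
FPKM (log axes) of the 5 inhibitor genes in each library, by group. Circles, squares and triangles are replicates 1, 2 and 3, which were not treated as matched between groups, and lines are group means. LSECs sit at 7.08 to 8.96 FPKM of Cdkn2b and 10.7 to 18.3 of Cdkn2a, below every other library, and at 162 to 202 FPKM of Cdkn1b, where they are the highest group.

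Cdkn2b, which encodes p15, was at 710.5, 325 and 992 FPKM in MACs 1 to 3 and at 651, 305 and 389 in Akt-MACs. In the converted cells it was at 164, 127 and 105 in RACVECs, 84.8, 149.5 and 26.3 in Akt-RACVECs, and 262, 40.2 and 90.6 in Sox17-RACVECs. Every converted library was thus below every MAC and Akt-MAC library. Adult lung cells (Akt-LECs) had 92.0, 37.1 and 50.1 FPKM, Akt-liver ECs 155, 517.5 and 216, and LSECs 7.08, 8.96 and 8.71. The highest neighbours in the order of means, MACs and Akt-MACs, overlapped, and so did every other pair of neighbours down to Akt-LECs (59.7 ± 28.7 FPKM, SD, n = 3). LSECs (8.25 ± 1.02) did not overlap with them.

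Cdkn2a, with both rows summed, was also highest in MACs by group mean and lowest in LSECs. MACs had 2552, 822 and 1570 FPKM and Akt-MACs 2100, 813.5 and 1148. RACVECs were tight at 578, 537 and 637, whereas Akt-RACVECs were at 514, 1313 and 136 and Sox17-RACVECs at 1287, 148 and 490. The lowest value of each of these last groups came from Akt-RACVEC 3 and the library labelled Sox17-RACVEC 2. Akt-LECs were at 57.8, 227 and 295, Akt-liver ECs at 205, 1625 and 1771, and LSECs at 12.4, 10.7 and 18.3. In both cultured adult groups the library with mesenchymal markers was the lowest.

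Kept apart, the rows of Cdkn2a showed different shares of p16Ink4a and p19Arf. The p16Ink4a row was at 1869, 321 and 842 FPKM in MACs and at 363, 446 and 416 in RACVECs, and the p19Arf row at 684, 501 and 728 in MACs and at 215, 90.7 and 222 in RACVECs. The p19Arf row was therefore below all MACs in all RACVECs, while RACVECs lay inside the MAC range for p16Ink4a. In Akt-RACVEC 3 and the library labelled Sox17-RACVEC 2 the p16Ink4a row was listed at 0.01 FPKM, although p19Arf stood at 136 and 148. The remaining libraries of these groups had p16Ink4a between 285 and 1145 FPKM. In LSECs both rows were low, at 6.72, 7.46 and 9.25 for p16Ink4a and 5.71, 3.27 and 9.01 for p19Arf. Akt-liver ECs had 111, 1325 and 1500 for p16Ink4a and 93.8, 299.5 and 271 for p19Arf. The share of p19Arf in both rows ranged from 11.0% in Sox17-RACVEC 1 to 99.99% in the library labelled Sox17-RACVEC 2, with a median of 33.7%.

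**Figure D2:**
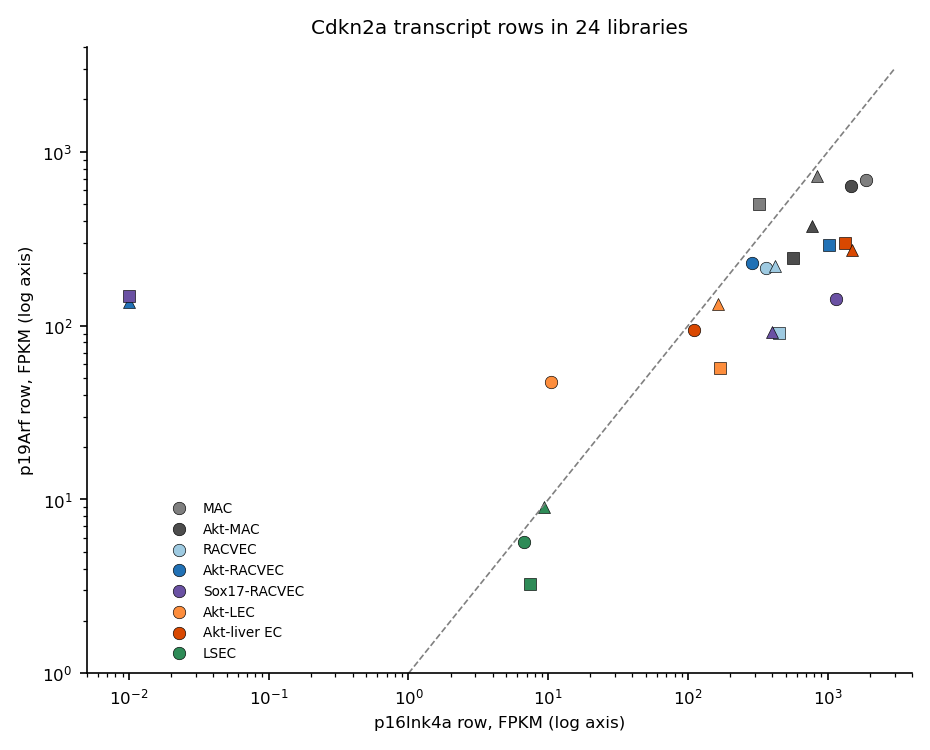
FPKM of the p16Ink4a row (x, log axis) and the p19Arf row (y, log axis) of Cdkn2a in 24 libraries, coloured by group, with symbols for replicates 1 to 3 and a dashed line of equal values. LSECs form the lower end at 3.27 to 9.25 FPKM, and the 2 points at the far left are Akt-RACVEC 3 and the library labelled Sox17-RACVEC 2, with p16Ink4a at 0.01.

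Of 18 pairs of a row and a comparison, 4 passed the test (limma on log2(FPKM + 1) over 18506 transcript rows, with the limits 0.05 for the Benjamini-Hochberg adjusted p and 2-fold for the change). The p19Arf row fell by 1.94 ± 0.50 (log2, SE) from MACs to RACVECs (adjusted p = 0.0458, limma), where 2.24% of rows were called. It was not called with a pseudocount of 0.1 (adjusted p = 0.0521), with the replicate number as a block (adjusted p = 0.0549) or when any library of RACVECs, MAC 1 or MAC 3 was left out (adjusted p up to 0.230). The p19Arf row was 2.40 ± 0.43 higher in MACs than in the cultured adult cells, Akt-LECs and Akt-liver ECs averaged (adjusted p = 0.00128), where 13.7% of rows were called. Between Akt-liver ECs and LSECs, with 25.1% of rows called, p19Arf was 4.91 ± 0.50 higher in Akt-liver ECs (adjusted p = 4.98e-07) and p16Ink4a 6.11 ± 2.23 higher (adjusted p = 0.0453). The p16Ink4a call was lost with a pseudocount of 0.1 (adjusted p = 0.111), with the replicate block (adjusted p = 0.0596) and when Akt-liver EC 2 or 3 or any LSEC library was left out (adjusted p up to 0.134). The fit pooled the spread of each row over all 8 groups. Its SE for p16Ink4a therefore includes the values of 0.01 in Akt-RACVEC 3 and the library labelled Sox17-RACVEC 2. These libraries are not part of this comparison. Without Akt-RACVEC 3 and the library labelled Sox17-RACVEC 2, p16Ink4a was 0.41 ± 1.15 higher in Akt-RACVECs than in RACVECs, against -2.61 ± 2.23 with them, and neither value was called.

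Cdkn1a, which encodes p21 (chr17:29227924-29237667, plus strand), was abundant in every cultured library. MACs had 2379, 957 and 3171 FPKM, Akt-MACs 1523, 1851 and 2405, and RACVECs 1081, 1254 and 1866. Akt-RACVECs had 1125, 1617 and 923, Sox17-RACVECs 999, 1059 and 1449, Akt-LECs 820, 572 and 985, and Akt-liver ECs 1579, 1087 and 648. Every pair of neighbouring groups overlapped from MACs down to Akt-LECs (792.5 ± 208 FPKM). LSECs were at 93.4, 98.2 and 513, below all of them, with LSEC 3 well above the others of its group. LSEC 3 also had the highest Alb of the 24 libraries (7975 FPKM, against 1951 and 1211 in LSEC 1 and 2), and the part of hepatocyte RNA in its Cdkn1a was not tested.

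For Cdkn1b and Cdkn2c the groups accounted for 39.6% and 32.0% of the variance of log2 levels, below the median of 59.3% over tested genes. Cdkn1b, which encodes p27, also called Kip1 (chr6:134870419-134875531, plus strand), was highest in LSECs at 202, 162 and 194 FPKM. Akt-LECs had 128, 197 and 73.9, RACVECs 123, 93.4 and 104, Akt-RACVECs 118, 42.45 and 114, and Akt-MACs 107, 105 and 62.4. Akt-liver ECs had 64.8, 104 and 102, and Sox17-RACVECs 65.4, 141 and 41.0. The lowest library was MAC 1 at 23.5, with the other MACs at 104 and 97.2, so that the MAC mean (75.0 ± 44.8) rests on that library. All neighbours in the order overlapped. Cdkn2c, which encodes p18 (chr4:109333481-109339794, minus strand), was at 111, 138 and 136 FPKM in Akt-LECs and at 46.9, 15.9 and 41.0 in Akt-liver ECs, which did not overlap. In Akt-RACVECs it was at 125, 11.8 and 139, so that replicate 2 was the lowest of all libraries and replicate 3 among the highest. MAC 2 held the highest level, 228, against 69.9 and 45.8 in the other MACs. Akt-MACs had 67.0, 78.7 and 18.01 FPKM of Cdkn2c, RACVECs 66.5, 74.8 and 32.0, Sox17-RACVECs 44.7, 84.0 and 46.4, and LSECs 71.4, 50.4 and 100.2.

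Trp53 (chr11:69393861-69405375, plus strand) and Mdm2 (chr10:117125944-117147814, minus strand) gave different orders among cultured cells and the same low end. Trp53 was at 209, 217 and 168 FPKM in MACs and at 198, 149 and 176 in Akt-MACs. RACVECs had 234, 446 and 382, all above the MACs. Akt-RACVECs had 288, 275 and 158, Sox17-RACVECs 427, 167 and 362, Akt-LECs 385, 225 and 342, and Akt-liver ECs 432, 336 and 352. LSECs had 135, 134 and 94.0, below every cultured library. Mdm2 was at 573, 357 and 716 in MACs and at 402, 484 and 1172 in RACVECs, which overlapped. Akt-LECs had 321, 153 and 323 FPKM of Mdm2, all below RACVECs, and LSECs had 126, 101 and 92.7. Akt-MACs had 553, 328 and 746.5, Akt-RACVECs 527, 488 and 231, Sox17-RACVECs 652, 362 and 644, and Akt-liver ECs 526, 548 and 279, and every one of these lay above all LSECs. Within the Akt-RACVEC group, Akt-RACVEC 3 was the lowest for both genes (158 and 231 FPKM), and within the Sox17-RACVEC group the library labelled Sox17-RACVEC 2 was the lowest (167 and 362).

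Rb1 (chr14:73583480-73725629, minus strand) was low in every converted library, between 16.1 and 32.1 FPKM over 9 libraries. RACVECs had 22.7, 23.1 and 32.1, Akt-RACVECs 19.8, 16.1 and 25.4, and Sox17-RACVECs 21.8, 24.7 and 20.5. MACs had 45.9, 30.3 and 83.4, Akt-MACs 76.7, 90.6 and 58.6, and LSECs 103, 75.7 and 68.4. Akt-MACs and LSECs thus lay above all converted cells, whereas MAC 2, at 30.3, lay within their range. Akt-LECs (38.6, 72.6 and 26.3) and Akt-liver ECs (51.3, 37.3 and 20.5) overlapped with the converted cells.

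The groups accounted for 37.0% of the variance of the log2 level of Ccnd1 and for 69.3% of that of Ccnd2. Ccnd1 (chr7:152115836-152125774, minus strand) was at 4729 and 3187 FPKM in Sox17-RACVECs 1 and 3 and at 211 in the library labelled Sox17-RACVEC 2, the highest and lowest values of all libraries. The second lowest, 252, was Akt-RACVEC 3, where the other Akt-RACVECs had 929 and 1847. RACVECs had 761, 917 and 1963, MACs 2792, 1356 and 4673, Akt-MACs 3288, 2209 and 1542, Akt-LECs 1139.9, 1000.4 and 3108, Akt-liver ECs 1993, 2531 and 2192, and LSECs 689, 590 and 524. Ccnd2 (chr6:127075797-127101066, minus strand) was at 966, 2372 and 1507 in Akt-MACs, the highest group, and at 455, 518 and 287 in Akt-RACVECs, which did not overlap. MACs had 1143, 531.5 and 517, RACVECs 342, 451 and 934, Sox17-RACVECs 385, 178 and 565, Akt-LECs 391, 176 and 222, Akt-liver ECs 562, 1206 and 515, and LSECs 375, 331 and 211. Of the summed FPKM of the D cyclins, with Ccnd3 as the last of them, Ccnd1 made up 48.9% ± 1.7 in LSECs and 72.6% ± 12.1 in Akt-LECs, and Ccnd2 ranged from 6.10% in Akt-LEC 3 to 47.8% in Akt-MAC 2.

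**Figure D3:**
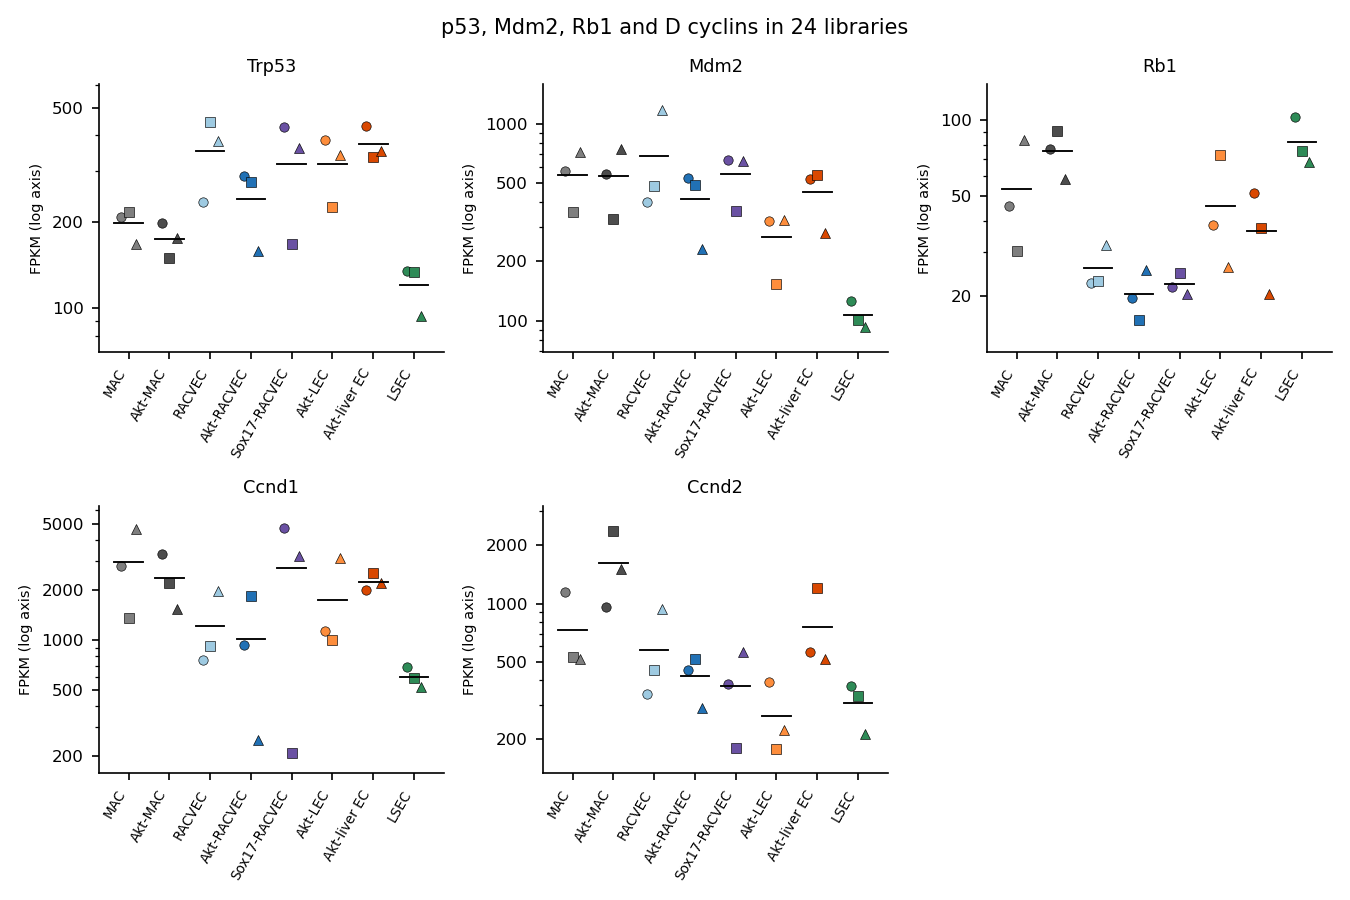
FPKM (log axes) of Trp53, Mdm2, Rb1, Ccnd1 and Ccnd2 in each library, by group, with symbols for replicates 1 to 3 and lines for group means. Rb1 is between 16.1 and 32.1 FPKM in the 9 converted libraries, and the lowest Ccnd1 values are 211 in the library labelled Sox17-RACVEC 2 and 252 in Akt-RACVEC 3.

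Groups were then compared with limma on log2(FPKM + 1) over the 14964 genes that passed the filter. A call required both a Benjamini-Hochberg adjusted p under 0.05 and a change of more than 2-fold. All fold changes below are differences on this log2 scale with their SE. The comparison of cultured Akt-liver ECs with LSECs called most of the set, 6 of 10, against 27.0% of tested genes. The 5 called higher in Akt-liver ECs (14.1% of tested genes were) were Cdkn2a (5.86 ± 0.90, adjusted p = 6.88e-05), Cdkn2b (4.82 ± 0.65, adjusted p = 1.61e-05), Cdkn1a (2.62 ± 0.54, adjusted p = 0.00107), Mdm2 (2.02 ± 0.45, adjusted p = 0.00202) and Trp53 (1.63 ± 0.32, adjusted p = 0.000841). Rb1 was called lower, by -1.23 ± 0.39 (adjusted p = 0.0192), where 12.9% of tested genes were. Ccnd1 (1.90 ± 0.88, adjusted p = 0.104), Ccnd2 (1.24 ± 0.50, adjusted p = 0.0602), Cdkn1b (-1.06 ± 0.53, adjusted p = 0.130) and Cdkn2c (-1.16 ± 0.77, adjusted p = 0.265) did not pass. The libraries of the groups did not overlap for any of the 10 genes, and 52.6% of tested genes showed this. The median difference of the 10 was 1.76, and 0.08 over all tested genes.

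Culture, transgene and isolation differ together between Akt-liver ECs and LSECs and cannot be told apart. Non-endothelial markers moved with the comparison. The 10 hepatocyte markers summed to 3146 to 17372 FPKM in LSECs and to 32.1 to 74.1 in Akt-liver ECs, where Alb was at 0 in replicates 2 and 3. The 9 macrophage markers found in the files summed to 15994 to 26263 in LSECs and to 0 to 1252 in Akt-liver ECs, and the 5 erythroid markers found to 10275 to 10897 and 0.75 to 1.07. Their part in the differences was not tested. The Rb1 call was lost without Akt-liver EC 3 (-0.87, adjusted p = 0.116) or LSEC 1 (-1.06, adjusted p = 0.0808), and without the Akt-LEC and Akt-liver EC libraries that carried mesenchymal markers all 6 calls held. A fit of only these 2 groups did not call Cdkn1a (adjusted p = 0.0517) or Rb1 (adjusted p = 0.0557). The study's criterion asked for a ratio of mean FPKM past 2-fold, here with 1 added to each mean, and an unadjusted p below 0.05. It called 4 of the 10 genes, without Cdkn1a, Cdkn2a, Cdkn2b and Mdm2, and 15.8% of all genes. For this criterion, all genes means the 17816 with a summed FPKM above 0 over the libraries. The fit of these 2 groups and the criterion both instead called Cdkn1b as lower and Ccnd1 as higher in Akt-liver ECs.

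In the conversion with Ets factors, RACVECs against MACs, 0 of 10 genes were called by limma, against 2.71% of tested genes, and 3 reached an unadjusted p below 0.05, as 19.6% of tested genes did. These were Cdkn2b (-2.23 ± 0.65, adjusted p = 0.0712), Rb1 (-0.91 ± 0.39, adjusted p = 0.203) and Trp53 (0.80 ± 0.32, adjusted p = 0.183). In the same comparison the libraries did not overlap for 3 genes, as for 22.0% of tested genes. Cdkn2b was called, at -2.68 with an adjusted p of 0.0331, when MAC 2 was left out. The study's criterion also called 0, and 2.44% of all genes. Applied here to summed genes, it called fewer genes in this comparison than the paper reports, in both directions.

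With Akt in both arms, Akt-RACVECs against Akt-MACs, 3 of 10 genes were called, against 19.5% of tested genes, and all were lower (13.4% of tested genes were). Cdkn2b changed by -2.60 ± 0.65 (adjusted p = 0.00877), Ccnd2 by -1.89 ± 0.50 (adjusted p = 0.0116) and Rb1 by -1.83 ± 0.39 (adjusted p = 0.0031). All 3 calls held without Akt-RACVEC 3, whereas a fit of only these 2 groups and the study's criterion (6.68% of all genes) each called 1, Rb1. Without Akt-MAC 2 Ccnd2 was not called (-1.56, adjusted p = 0.066). The 9 macrophage markers summed to 966 to 45295 FPKM in Akt-MACs and to 5.35 to 165 in Akt-RACVECs, and the mesenchymal markers to 2409 to 10235 and 6.04 to 487. With Akt-MAC 1 alone in that arm, assumed to vary like the other groups, 0 of the 10 genes were called, where 262 of all 14964 tested genes were called higher and 684 lower (Cdkn2b -3.21, adjusted p = 0.0567; Rb1 -1.88, adjusted p = 0.0597; Ccnd2 -1.24, adjusted p = 0.324).

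Between Akt-MACs and MACs 0 of 10 were called by limma (2.81% of tested genes were) and 0 by the study's criterion (0.954% of all genes). Ccnd2 was the 1 gene of the 10 with an unadjusted p below 0.05, as 14.0% of tested genes had (1.15 ± 0.50, adjusted p = 0.287). The 9 macrophage markers moved with this comparison, with sums of 966 to 45295 FPKM in Akt-MACs and 0.79 to 14.7 in MACs. The highest Ccnd2 levels, 2372 and 1507 FPKM, were those of Akt-MAC 2 and 3, which had the highest macrophage sums of the Akt-MACs, 14786 and 45295. With Akt-MAC 1 alone in its arm the Ccnd2 difference was 0.51 (adjusted p = 1.00). Between Akt-RACVECs and RACVECs 0 of 10 were called by limma (0.261% of tested genes were), 0 by the study's criterion (2.91% of all genes) and 0 at an unadjusted p below 0.05 (15.9% of tested genes), and all 10 intervals of 95% contained 0. The outermost values were those of Cdkn2b (-0.89, 95% interval -2.25 to 0.47) and Cdkn2c (0.14, -1.48 to 1.76), intervals that leave room for changes past 2-fold. For Ccnd2 the Akt effect in RACVECs minus that in MACs was -1.51 ± 0.70 (adjusted p = 0.402), beside a median of -0.119 over all tested genes.

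Between Sox17-RACVECs and RACVECs 0 of 10 genes were called by limma, against 0.00668% of tested genes, with 0 by the study's criterion (0.848% of all genes) and 0 at an unadjusted p below 0.05 (6.62% of tested genes). Ccnd2 (-0.63, 95% interval -1.67 to 0.41) and Ccnd1 (0.41, -1.44 to 2.25) were the outermost. Without the library labelled Sox17-RACVEC 2 and Akt-RACVEC 3, Ccnd1 was 1.81 higher in Sox17-RACVECs (adjusted p = 0.521), with values of 4729 and 3187 FPKM against at most 1963 in RACVECs. The library with 4729, Sox17-RACVEC 1, had Sox17 at 5.09 FPKM, and that with 3187, Sox17-RACVEC 3, had it at 200.1.

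The remaining comparisons set the cultured cells beside each other. Against Akt-LECs, RACVECs had 0 of 10 genes called by limma (0.261% of tested genes), 3 at an unadjusted p below 0.05 (as for 1714 of the 14964 tested genes) and 3 by the study's criterion, which called 1.83% of all genes. The libraries did not overlap for 5 genes, against 15.2% of tested genes. Mdm2 (1.28 ± 0.45, adjusted p = 0.255), Cdkn2a (1.88 ± 0.90, adjusted p = 0.436) and Ccnd2 (1.08 ± 0.50, adjusted p = 0.422) were the 3 with the unadjusted p, and Cdkn2c had the lowest value (-1.22 ± 0.77, adjusted p = 0.580). Between MACs and the mean of both cultured adult groups 1 of 10 genes was called, against 14.8% of tested genes. This was Cdkn2b, 2.34 ± 0.56 higher in MACs (adjusted p = 0.00783), where 7.51% of tested genes were, and not called by the study's criterion, which called 8.31% of all genes. Cdkn1a was called as well when MAC 2 was left out (1.62, adjusted p = 0.0334, against 1.11 and 0.0976 with it), and Trp53 stood at -0.78 ± 0.28 (adjusted p = 0.056). Between Akt-LECs and Akt-liver ECs 0 of 10 genes were called by limma (0.0134% of tested genes) and 1, Cdkn2c, by the study's criterion (0.483% of all genes). Unadjusted p-values below 0.05 were found for 4 of 10, against 4.22% of tested genes, namely Cdkn2b (-2.20 ± 0.65), Ccnd2 (-1.50 ± 0.50), Cdkn2a (-2.41 ± 0.90) and Cdkn2c (1.99 ± 0.77), and the smallest adjusted p of these was 0.917. These comparisons share RACVEC, MAC, Akt-LEC and Akt-liver EC libraries and are not independent of each other.

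**Figure D4:**
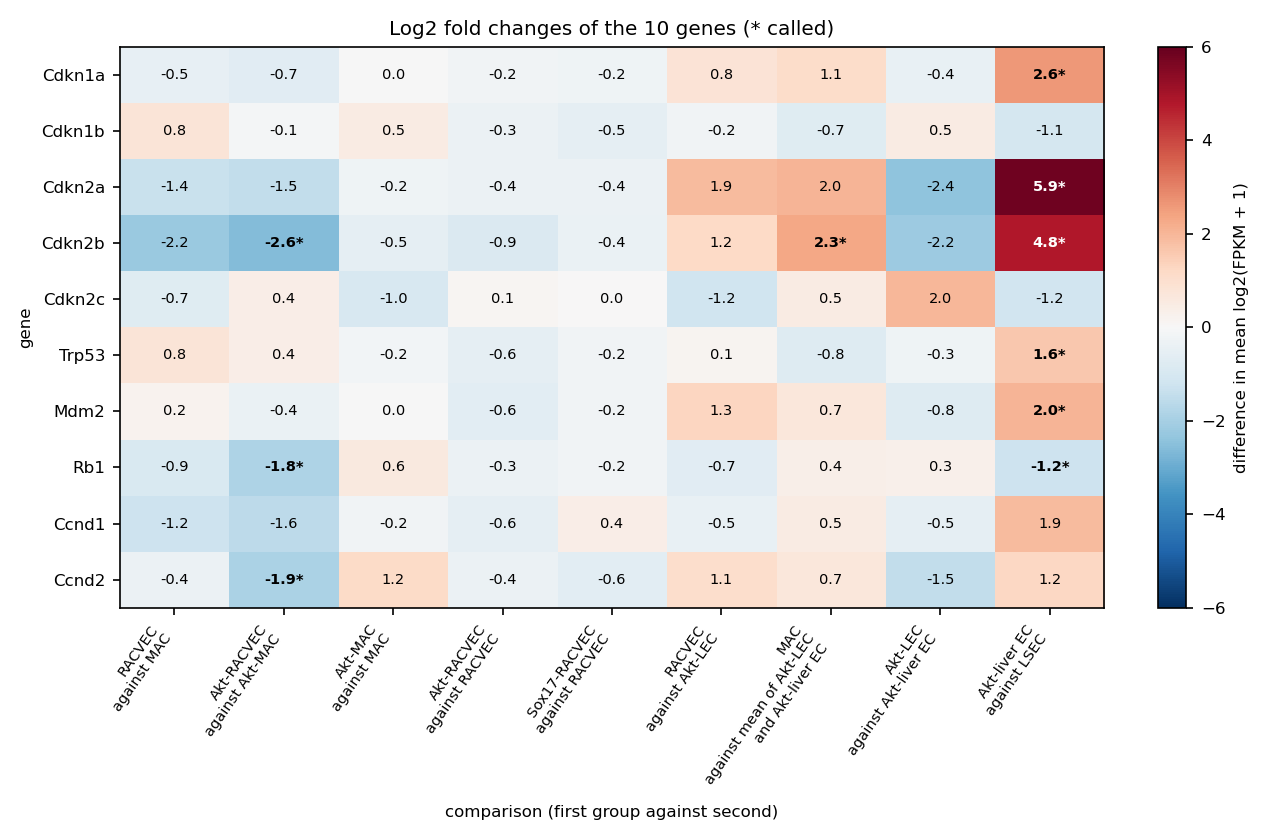
Log2 fold changes of the 10 genes (rows) in the comparisons (columns), on the log2(FPKM + 1) scale, with an asterisk on those called. The 6 calls between Akt-liver ECs and LSECs range from -1.23 for Rb1 to 5.86 for Cdkn2a, and the 3 calls between Akt-RACVECs and Akt-MACs from -2.60 for Cdkn2b to -1.83 for Rb1.

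Targets of p53 were followed as a list of 20 genes, all of them tested. Between Akt-liver ECs and LSECs, where Trp53 itself was called, 11 were called, against 27.0% of tested genes, 9 of them higher and 2 lower in Akt-liver ECs, with a list median of 1.01 beside 0.08 for all tested genes. Tnfrsf10b, which encodes a death receptor, was 5.48 ± 0.36 higher, Phlda3, an inhibitor of Akt, 4.37 ± 0.35, Zmat3 3.23 ± 0.33, and Ccng1, which encodes cyclin G1, 2.23 ± 0.43. Fas, which encodes another death receptor, was lower (-5.59 ± 0.84), as was Sesn1 (-2.05 ± 0.66). Between Akt-RACVECs and Akt-MACs 6 of the 20 were called, against 19.5% of tested genes. Of these 1 was higher, Plk2 (2.15 ± 0.76), and 5 were lower, from Sesn2 (-1.24 ± 0.35) to Perp (-5.92 ± 1.72), with Ccng1 at -2.01 ± 0.43. This count was not repeated without Akt-MAC 2 and 3, which carried macrophage markers. In MACs 4 of 20 were higher than in the cultured adult cells, where 7.51% of tested genes were called higher (Fas, Ccng1, Trp53inp1 and Phlda3, from 1.07 to 2.92). In RACVECs against MACs 0 of 20 were called by limma, with 4 at an unadjusted p below 0.05, as 19.6% of tested genes had.

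Genes of DNA synthesis and of mitosis lie downstream of the gate and were counted the same way. Set against LSECs, Akt-liver ECs had 12 of 20 E2F and S phase genes higher, with Ccne1, which encodes cyclin E1, at 4.40 ± 0.64, and 0 were lower. Of 20 G2 and M phase genes, 17 were higher, with Plk1, a mitotic kinase, at 3.97 ± 0.68. The medians of these lists were 1.70 and 2.94, and 14.1% of tested genes were called higher there. In Akt-RACVECs 8 S phase genes and 15 G2 and M phase genes were higher than in Akt-MACs and 0 were lower. Of tested genes 6.15% were called higher there. Mcm3, part of the replicative helicase, was at 2.19 ± 0.47 and Top2a, a topoisomerase of dividing cells, at 2.69 ± 0.68. The counts of this comparison were not repeated without Akt-MAC 2 and 3, which carried macrophage markers. MACs had 9 S phase genes and 17 G2 and M phase genes lower than the cultured adult cells, where 7.30% of tested genes were called lower. In RACVECs against MACs only Mcm3 of these 40 was called (1.79 ± 0.47, adjusted p = 0.0438), where 2.71% of tested genes were. An unadjusted p below 0.05 was found for 8 of 20 S phase and 16 of 20 G2 and M phase genes, and for 19.6% of tested genes.

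The summed FPKM of the 20 G2 and M phase genes was 319 to 881 in LSECs, 356 to 1210 in MACs and 400.4 to 794 in Akt-MACs. It was 1047 to 2970 in RACVECs, 1160 to 2502 in Sox17-RACVECs, 1340.5 to 3095 in Akt-RACVECs, 3433 to 4454 in Akt-LECs and 618.5 to 3000.2 in Akt-liver ECs. MACs, which had the highest means of Cdkn2a, Cdkn2b and Cdkn1a, and LSECs, which had the lowest, thus overlapped in this sum.

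**Figure D5:**
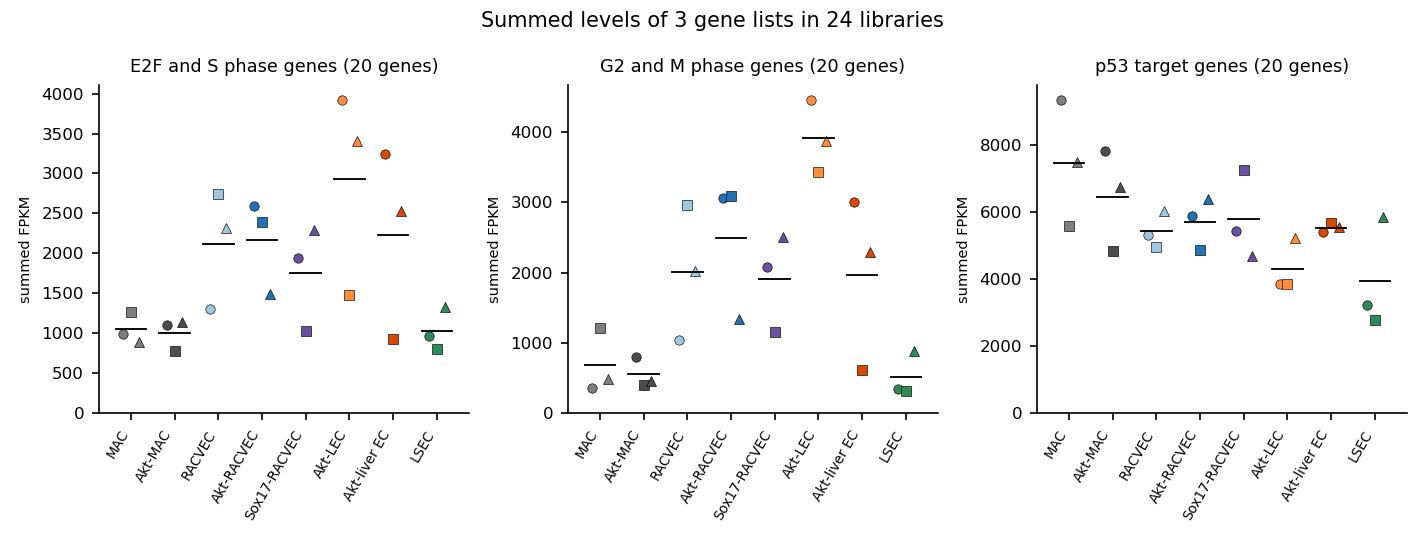
Summed FPKM (linear axes from 0) of the 20 E2F and S phase genes, the 20 G2 and M phase genes and the 20 p53 target genes in each library, by group, with symbols for replicates 1 to 3 and lines for group means. G2 and M phase sums are at most 1210 in MACs, Akt-MACs and LSECs and reach 4454 in Akt-LECs, and p53 target sums run from 2792 in an LSEC library to 9330 in a MAC library.

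Among 12 close relatives and partners, 10 were tested. Of these 2 were called between Akt-liver ECs and LSECs (27.0% of tested genes), 4 between Akt-RACVECs and Akt-MACs (19.5%) and 4 between MACs and the cultured adult cells (14.8%). Cdk4, the partner of D cyclins, was 1.13 ± 0.35 higher in Akt-liver ECs (against LSECs) and Cdk6, its homologue, 1.86 ± 0.70 higher. In Akt-RACVECs against Akt-MACs the relatives of Rb1 moved in opposite directions, Rbl1 by 1.10 ± 0.32 and Rbl2 by -1.61 ± 0.25, beside -1.83 for Rb1, while Cdk2 (1.58 ± 0.25) and Cdk4 (1.10 ± 0.35) were higher. These calls too were not repeated without Akt-MAC 2 and 3. Between MACs and the cultured adult cells Rbl2 was 1.19 ± 0.21 higher and Cdkn3 (-2.46 ± 0.82), Cdk2 (-1.20 ± 0.21) and Rbl1 (-1.06 ± 0.28) lower in MACs.

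As a description over the 24 libraries, which fall into groups, log2 levels of Cdkn2a and Cdkn2b had a Pearson correlation of 0.912 and those of Cdkn1a and Mdm2 of 0.823, the highest of the 45 pairs, and Cdkn1b and Mdm2 had the lowest, -0.639. Among 11699 genes averaging 10 FPKM or more, the patterns most like that of Trp53 were those of Set (0.969) and Nop56 (0.952). For Cdkn2b they were Nck2 (0.923) and Ctxn1 (0.922), for Cdkn2a Cdkn2b and Cpt1c (0.908), for Cdkn1a Bmp1 (0.904) and Irak1bp1 (0.898), and for Mdm2 Samd4 (0.912) and Slc52a2 (0.910). Rb1 was closest to Sgcb (0.877) and Ntng2 (0.874), Ccnd1 to Reep2 (0.859) and Tpd52l1 (0.832), and Ccnd2 to Tbcel (0.852) and Igdcc4 (0.827). Cdkn1b (Pcif1, 0.790, and Tmem87a, 0.783) and Cdkn2c (Erg28, 0.724, and Acat3, 0.656) had the weakest best matches.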

How the data were processed

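RNA was measured in 24 libraries of 8 groups, with paired reads of 51 bases. The authors aligned reads to mm9 (printed as mmp9 in the methods) with TopHat and computed the deposited FPKM values with Cufflinks, using upper-quartile normalization and sequence-bias correction. Versions are not given in the sources used here. Upper-quartile scaling makes FPKM totals (1689486 to 2317294 per library) no measure of depth, so that depth is unknown and no counting error can be given. No pair of libraries was identical.

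Of 27583 transcript rows, 26934 had a gene symbol. Rows were summed per current symbol to 22282 genes, of which 14964 with a mean FPKM of at least 1 were tested. Isoforms that share exons are split by the authors' estimate, which bears on the Cdkn2a rows. Groups were taken from the sample titles. limma 3.58.1 (R 4.3.3) was fitted once to log2(FPKM + 1) of all 8 groups, with a variance trend, two-sided, and with Benjamini-Hochberg adjustment, and a call required an adjusted p under 0.05 together with a change of more than 2-fold. Fold changes on this scale understate those of low genes. P-values measure the spread between these libraries. The script was tested on simulated data. Sums, sequences and figures were made with Python 3.11.15, numpy 2.4.6, pandas 2.3.3 and matplotlib 3.10.9. Positions are from the mm9 annotation and promoters from RefSeq.

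The members and lists were chosen with earlier results of these data known. All 10 members were named with their values in every library. Other genes could be named if called in a list, as partners of a member, as 1 of the 2 genes most correlated with it or as transduced genes, and of the called genes examples are given. Alb, Col1a1, Adgre1 and Cdh5, which mark cell types, fall outside this rule and were chosen after their values were seen. Alternatives were other pseudocounts, filters and scaling, a replicate block, a fit of only the compared groups, the study's criterion, and leaving out libraries, of which the joint omissions and all settings for the Cdkn2a rows were chosen after seeing the data.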

Additional observations from a re-analysis of the deposited data

How the results depend on the processing

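Of 182 alternative counts of called members or Cdkn2a rows, 164 stayed within 1.5 times the reported count and 18 did not. Of 570 alternative fold changes, 538 kept direction and side of the threshold, 17 lost the call, 9 gained one and 6 changed sign. For Akt-RACVECs against Akt-MACs the count of 3 became 1 in a fit of only the groups compared, 1 by the study's criterion and 0 without Akt-MAC 2 and 3. The criterion gave 3 in place of 0 for RACVECs against Akt-LECs, 0 in place of 1 for MACs against the cultured adult cells and 1 in place of 0 for Akt-LECs against Akt-liver ECs. Leaving out 1 library gave 0 to 1 for RACVECs against MACs, 1 to 2 for MACs against the cultured adult cells and 2 to 4 for the Cdkn2a rows, of which 2 were also left with a pseudocount of 0.1 and 2 with the replicate block. For Akt-liver ECs against LSECs, 4 members were called by the criterion, without Cdkn1a, Cdkn2a, Cdkn2b and Mdm2 and with Cdkn1b and Ccnd1. A fit of only these groups lost Cdkn1a (adjusted p = 0.0517) and Rb1 (adjusted p = 0.0557) and gained Cdkn1b and Ccnd1. Signs changed for Cdkn2c in Akt-RACVECs against RACVECs (-0.46 to 1.26 when 1 library was left out, and -0.46 without both libraries that stood apart) and for Ccnd1 in Sox17-RACVECs against RACVECs (-0.44 to 1.81), neither of them called. The causes were not tested. Replicate numbers were not taken as pairs in the main fit. Correlations of same-numbered libraries' deviations ran from -0.20 to 0.57, and no comparison had all 3 above 0.1. The highest were 0.57 and 0.37, for numbers 1 and 2 of Akt-LECs against Akt-liver ECs. Whether those libraries share an origin was not tested. The replicate block changed no count of called members, whereas 2 of 4 Cdkn2a row calls were lost (p19Arf in RACVECs against MACs and p16Ink4a in Akt-liver ECs against LSECs). Over all tested genes it moved the count by over 1.5 times in Akt-RACVECs against RACVECs (from 33 higher and 6 lower to 98 and 44) and in Sox17-RACVECs against RACVECs (from 1 lower to 4). Depth is unknown, so a value of 0 sets no limit of detection.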
